A study of Mus musculus with 16 samples.

Results

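Chromatin accessibility was examined around 48 mouse genes whose symbols start with Clec (30 genes), Cd300 (12 genes) or Siglec (6 genes). They were all the genes with such symbols among 21755 protein-coding genes of the GENCODE M21 annotation on chromosomes 1 to 19 and X. Clec7a is listed in that annotation as a polymorphic pseudogene and was therefore not a member. An accessible site was a stretch where peaks of any of the 16 libraries overlapped, and it was linked to a gene when it came within 50 kb of the gene's 5′ end. Of 90549 sites, 66911 were linked to a protein-coding gene and 321 to a member. At 167 of the 321 the nearest protein-coding start was that of a member, and at the rest that of another gene.

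Cell surface receptors of these families let myeloid cells read sugars, lipids and dying cells. Members with a long inhibitory tail recruit phosphatases such as SHP-1, encoded by Ptpn6, whereas others pair with the adaptors DAP12 (Tyrobp) or FcRγ (Fcer1g) and signal through the kinase Syk. The name rule also takes in genes that are no such receptor: Clec11a, Clec3a, Clec3b and Clec18a encode secreted proteins, the Clec2 genes encode ligands or relatives of ligands of natural killer receptors, and Clec16a encodes an endosomal protein. The label of myeloid receptors thus covers most but not all of the members.

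The study compared progenitors from mouse fetal liver that were immortalized with estrogen-regulated HoxB8 and grown in β-estradiol. ATAC-seq, which marks accessible DNA by the insertion of the Tn5 transposase, was run on sorted cells 3 days after retroviral infection, with 4 libraries in each of 4 groups. The hi-77+/+ empty group kept the upstream enhancer of Gata2 that the name refers to and received an empty vector, and the hi-77-/- empty group lacked that enhancer and received the same vector. The groups hi-77-/- GATA2 and, with the variant, hi-77-/- 9aa-Ins lacked the enhancer and received a retrovirus for GATA2, a transcription factor of blood progenitors, or for 9aa-Ins, a GATA2 variant with an insertion in the spacer between its zinc fingers. Both proteins came from a viral vector rather than the Gata2 locus. The number of embryos or clones behind each immortalized population is not given in the sources used here, so genotype and population cannot be told apart.

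The peak lists held 50195 to 112267 peaks, and the 49000 strongest of each were used. Read counts were not used here, and the depth of the libraries is unknown. The median width of the peaks used was 293 to 378 bp in hi-77-/- 9aa-Ins, 177 to 245 bp in hi-77-/- GATA2, 244 to 277 bp in hi-77-/- empty and 212 to 260 bp in hi-77+/+ empty. The −log10 p of the weakest peak used ran from 5.35 in hi-77-/- GATA2 replicate 1 to 11.7 in hi-77-/- 9aa-Ins replicate 1. The part of peak width and peak strength in the counts given here was not tested. All 7 progenitor markers examined (Kit, Cd34, Flt3, Spi1, Cebpa, Myb and Runx1) had a peak within 1 kb of their start in all 16 libraries, and none of the 9 hepatocyte, endothelial, T cell and natural killer cell markers had such a peak in any.

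A set of 7 sites near the receptor genes had a peak in every library of hi-77-/- 9aa-Ins and of hi-77-/- empty and in none of hi-77+/+ empty and hi-77-/- GATA2. They lay at the starts of Siglece and Cd300c2 and 24.5 to 32.9 kb from the starts of Siglec1, Clec12a, Cd300lg, Clec16a and Siglec15. For the sites of Siglec1, Clec12a and Cd300lg, another protein-coding start was nearer: that of Adam33, 4922502D21Rik and Mpp3 respectively. The 7 sites were 2.18% of the member sites, beside 0.632% of all gene-linked sites. Sequences of 6 of them are shown because this pattern recurs through the results below. Each is the longest stretch without an exon in the 300 bp about the centre of the site, on the plus strand of mm10 (GRCm38). Capitals mark WGATAR, the GATA factor motif (A or T, then GATA, then A or G), and GGAA, the core of the ETS factor motif, on either strand (GGAA reads TTCC on the other strand).
Siglece start, chr7:43660162-43660318: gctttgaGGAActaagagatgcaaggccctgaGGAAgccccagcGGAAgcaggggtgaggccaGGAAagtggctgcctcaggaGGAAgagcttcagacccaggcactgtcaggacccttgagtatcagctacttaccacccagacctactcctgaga
Cd300c2 start, chr11:115001881-115001946: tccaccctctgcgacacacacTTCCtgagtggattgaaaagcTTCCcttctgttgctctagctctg
Siglec1 +32.9 kb, chr2:131053589-131053684: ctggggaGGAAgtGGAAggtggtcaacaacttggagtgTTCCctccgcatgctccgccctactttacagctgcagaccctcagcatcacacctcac
Clec12a -29.8 kb, chr6:129312561-129312860: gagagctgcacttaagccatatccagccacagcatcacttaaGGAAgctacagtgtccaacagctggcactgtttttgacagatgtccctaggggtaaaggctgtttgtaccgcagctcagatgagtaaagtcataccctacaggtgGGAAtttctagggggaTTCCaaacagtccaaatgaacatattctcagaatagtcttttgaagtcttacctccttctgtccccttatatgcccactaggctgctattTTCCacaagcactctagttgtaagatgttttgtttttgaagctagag
Cd300lg -32.1 kb, chr11:102009037-102009336: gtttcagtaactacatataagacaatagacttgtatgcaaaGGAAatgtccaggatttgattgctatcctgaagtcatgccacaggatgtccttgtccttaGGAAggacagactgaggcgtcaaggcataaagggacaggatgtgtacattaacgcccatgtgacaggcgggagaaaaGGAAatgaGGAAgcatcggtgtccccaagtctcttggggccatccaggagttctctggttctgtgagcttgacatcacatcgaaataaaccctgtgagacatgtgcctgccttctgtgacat
Clec16a +24.5 kb, chr16:10569867-10570166: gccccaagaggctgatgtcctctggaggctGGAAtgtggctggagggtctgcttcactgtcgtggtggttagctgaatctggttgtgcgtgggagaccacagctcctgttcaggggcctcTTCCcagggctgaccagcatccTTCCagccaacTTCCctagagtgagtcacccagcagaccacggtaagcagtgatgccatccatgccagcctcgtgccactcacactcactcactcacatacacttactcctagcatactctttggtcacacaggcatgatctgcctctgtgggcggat
None of these 6 windows of 300 bp held a WGATAR match, and all of them held GGAA. The site Siglec15 +24.8 kb, which is not printed, held 1 WGATAR match. Of all 90549 sites, 36.3% held WGATAR and 96.1% held GGAA in a window of that length. A match is a description of the letters and does not show that a factor was bound.

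With GATA2 against hi-77-/- empty, 3 member sites opened (0.935%), where 1.5% of all gene-linked sites did. All 3 lay beside Clec4d and Clec4e. Both genes encode receptors for mycobacterial glycolipids that signal through FcRγ. The sequences of 2 of these sites are shown as the counterpart of the first set, with the same capitals.
Clec4d -1.5 kb, chr6:123260114-123260413: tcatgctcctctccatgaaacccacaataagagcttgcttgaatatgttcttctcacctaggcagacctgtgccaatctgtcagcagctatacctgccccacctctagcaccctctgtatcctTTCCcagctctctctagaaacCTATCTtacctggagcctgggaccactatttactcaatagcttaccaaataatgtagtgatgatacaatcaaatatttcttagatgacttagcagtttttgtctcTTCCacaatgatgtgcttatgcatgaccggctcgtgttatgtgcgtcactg
Clec4e -16.4 kb, chr6:123306332-123306631: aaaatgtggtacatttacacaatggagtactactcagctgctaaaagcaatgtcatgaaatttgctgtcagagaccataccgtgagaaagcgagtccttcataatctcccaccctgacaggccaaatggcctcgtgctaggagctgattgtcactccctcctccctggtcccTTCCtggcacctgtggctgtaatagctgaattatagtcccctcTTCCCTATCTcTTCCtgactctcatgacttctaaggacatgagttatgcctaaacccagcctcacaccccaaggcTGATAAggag
Matches to WGATAR were found in Clec4d -1.5 kb (1 match) and Clec4e -16.4 kb (2 matches). Among the 1004 gene-linked sites that opened with GATA2, 82.7% held WGATAR. Among the 11 member sites that closed with GATA2, 2 held WGATAR (18.2%), beside 26.4% of the 1275 gene-linked sites that closed.

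A site is called opened where all 4 libraries of the first-named group had a peak and all 4 of the second lacked it, and closed in the reverse case. In hi-77-/- empty against hi-77+/+ empty, 16 member sites opened (4.98%) and 5 closed (1.56%), where 2.86% of all gene-linked sites opened and 2.23% closed. In hi-77-/- GATA2 against hi-77-/- empty, 3 opened and 11 closed, beside 1.5% and 1.91% of gene-linked sites. The closed sites made up 3.43% of the member sites. For hi-77-/- 9aa-Ins against hi-77-/- empty, 8 opened and 0 closed, beside 1.24% and 0.152%. These comparisons share the hi-77-/- empty libraries.

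Direct comparison of the proteins gave 16 opened and 2 closed member sites in hi-77-/- 9aa-Ins against hi-77-/- GATA2, beside 2.63% and 1.3% of gene-linked sites. Against hi-77+/+ empty, hi-77-/- GATA2 had 5 opened and 7 closed sites, beside 2.24% and 2.38%. hi-77-/- 9aa-Ins had 28 opened and 7 closed sites against the same libraries, beside 4.67% and 2.5%. In total, 48 of the 321 sites were called in at least 1 comparison, and 36 in 2 or more. The share of all gene-linked sites so called was not counted. The 6 comparisons are pairs of the same 4 groups, so calls of a site in several of them are not independent. A site like Siglece start, with a peak in every library of 2 groups and none of the others, is called in 4 of them. By this call the share of member sites opened was above the background where hi-77-/- empty or 9aa-Ins was named first. Where GATA2 was, the share was below it, with few sites: 3 (0.935%, beside 1.5%) and 5 (1.56%, beside 2.24%).

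**Figure D1:**
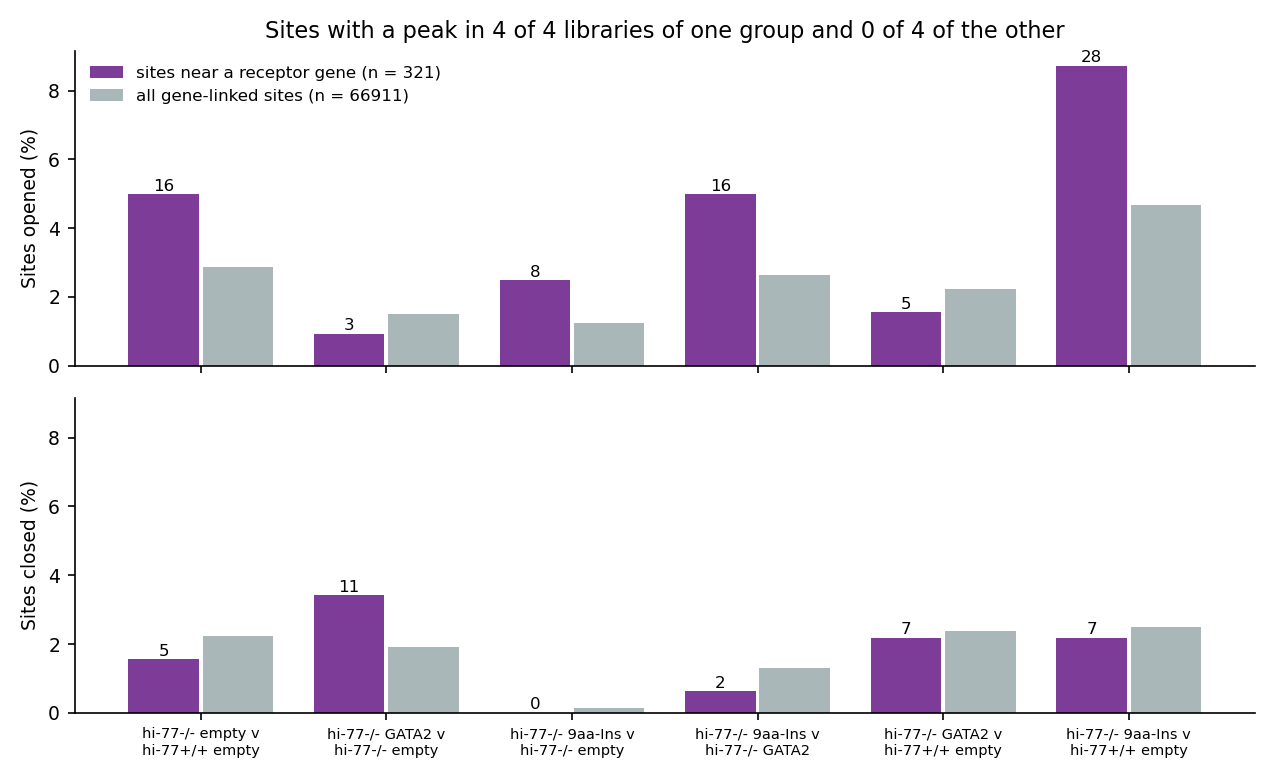
Percent of sites present in every library of the first-named group and absent from every library of the second (opened, top) or the reverse (closed, bottom), for the 321 sites near a receptor gene (purple, number of sites above the bar) and all 66911 gene-linked sites (grey). The tallest purple bar is the 28 sites opened in hi-77-/- 9aa-Ins against hi-77+/+ empty.

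No single site passed correction. The two-sided exact permutation test of presence in 4 against 4 libraries cannot go below p = 0.0286, and the smallest Benjamini-Hochberg adjusted p over all sites was 0.303, in hi-77-/- 9aa-Ins against hi-77+/+ empty. Between 1376 and 7284 sites of the whole table had an unadjusted p under 0.05 in that test. The calls are therefore descriptions of which libraries held a peak. The GATA2-opened sites fell from 3 to 0 when only the 24000 strongest peaks were used, and also when peaks had to cover 50% of the site. With the 24000 strongest peaks the sites opened by 9aa-Ins fell from 8 to 1 against hi-77-/- empty and from 28 to 16 against hi-77+/+ empty. With all deposited peaks the 5 sites that closed in hi-77-/- empty against hi-77+/+ empty became 11. The shares of all gene-linked sites under these settings were not counted.

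As a graded measure, each peak was scored by the percent of the library's 49000 peaks that ranked at or below it, with 0 for no peak, and limma was run on this score over all sites. In simulated data limma called more unchanged sites than its threshold allows and missed many changed ones, so no site is named from it and its counts are approximate. At an adjusted p under 0.05, 49 of 266 member sites with a peak in either group scored higher and 30 lower in hi-77-/- empty against hi-77+/+ empty, beside 10.8% and 12.1% of gene-linked sites. With GATA2 against hi-77-/- empty, 4 were higher and 26 lower of 249, beside 4.48% and 6.63%. With 9aa-Ins against hi-77-/- empty, 5 were higher (2.01%) and 4 lower (1.61%) of 249, beside 3.58% and 0.978%. The share higher was thus below the background here, unlike the share of sites called opened.

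The direct comparison of 9aa-Ins with GATA2 by limma gave 37 higher and 8 lower of 259 sites, beside 9.77% and 4.82%. GATA2 against hi-77+/+ empty gave 20 higher and 28 lower of 259, beside 8.26% and 9.92%. For 9aa-Ins against hi-77+/+ empty, 62 were higher and 40 lower of 282, beside 15.8% and 14.9%.

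Siglec genes encode sialic acid-binding receptors, and Siglece is an inhibitory member of neutrophils and macrophages. At the Siglece start (chr7:43659951-43660386), which reaches into its coding sequence, the rank scores in hi-77-/- empty were 53.6, 73.6, 61.1 and 63.8. In hi-77-/- 9aa-Ins they were 48.6, 43.4, 35.8 and 50.4. The 8 libraries of hi-77+/+ empty and hi-77-/- GATA2 held no peak there. A site 3.4 kb into Siglece had peaks in 4 libraries of hi-77-/- empty and 3 of hi-77-/- 9aa-Ins, and none elsewhere. The sites at +22.7 kb and +23.6 kb, inside Ceacam18, were open in 4 of 4 hi-77-/- 9aa-Ins libraries, and the latter also in 2 of hi-77-/- empty and 1 of hi-77-/- GATA2. At +22.7 kb the scores in hi-77-/- 9aa-Ins were 15.5 to 28.4.

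The open sites around Siglece numbered 6, 4, 3 and 4 in hi-77+/+ empty, 5, 6, 6 and 8 in hi-77-/- empty, 6, 4, 3 and 3 in hi-77-/- GATA2 and 9, 8, 7 and 7 in hi-77-/- 9aa-Ins. Every 9aa-Ins library lay above every hi-77+/+ empty and GATA2 library. Siglecf, a receptor of eosinophils, had a peak at its start in all 16 libraries. Siglecg, which dampens B cell signaling, had 7, 7, 8 and 8 open sites in hi-77-/- 9aa-Ins, against 6, 5, 6 and 3 in hi-77-/- GATA2. Its site at -8.4 kb was open in 4 libraries of hi-77-/- 9aa-Ins, 2 of GATA2 and none of the others. That at -15.2 kb was open in 1, 3, 0 and 4 libraries of hi-77+/+ empty, hi-77-/- empty, GATA2 and 9aa-Ins. In 9aa-Ins their scores were as low as 0.384 and 2.19, and at most 40.2 and 22.6. With the 24000 strongest peaks the Siglecg differences turned to -0.25 sites.

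Siglec1, a macrophage adhesion receptor, had its called site 32.9 kb downstream of its 5′ end, within a coding exon of Adam33, whose start was 9908 bp away. Rank scores there were 35.2, 16, 13.3 and 60.4 in hi-77-/- empty and 23, 5.46, 20.9 and 10.3 in 9aa-Ins. These were low to middle ranks, and the groups with peaks overlapped. Siglec15, a DAP12-coupled receptor of osteoclasts, had 2 called sites. The site at +24.8 kb, in an intron of Epg5, scored 47.3, 33.9, 39.2 and 22 in hi-77-/- empty and 4.49, 25.6, 33.4 and 11.8 in 9aa-Ins. The site at +10.8 kb, in an intron of Siglec15, was open in 4 of 4 hi-77-/- empty libraries and 1 of 4 of 9aa-Ins only.

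Siglech, a DAP12-coupled receptor of plasmacytoid dendritic cells, differed from that pattern. Its start had a peak in 0 of 4 hi-77+/+ empty libraries, 4 of hi-77-/- empty, 3 of GATA2 and 4 of 9aa-Ins. Its site at -33.4 kb was open in every hi-77+/+ empty library and in 1 of the other 12.

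**Figure D2:**
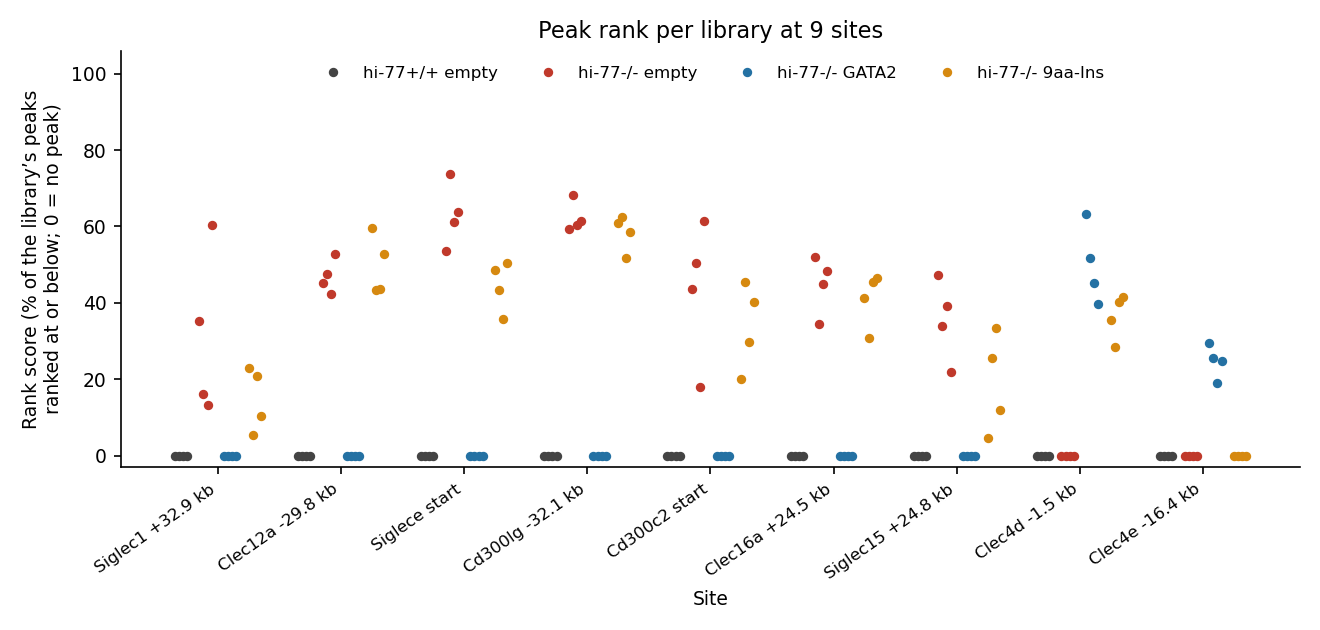
Rank score of the peak in each of the 16 libraries (percent of the library's 49000 peaks ranked at or below it, 0 without a peak) at the 7 sites open in hi-77-/- empty and 9aa-Ins and at 2 of the 3 sites opened by GATA2, coloured by group. At the first 7 sites all hi-77+/+ empty and GATA2 points lie at 0.

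Genes of the Cd300 family encode lipid-binding receptors in inhibitory and activating forms, and all but Cd300lg lie in a cluster on chromosome 11. Across the 74 sites of the family, 26 to 30 had a peak in hi-77+/+ empty, 41 to 48 in hi-77-/- empty, 32 to 40 in GATA2 and 41 to 46 in 9aa-Ins. The hi-77-/- empty and 9aa-Ins libraries lay above all libraries of the other groups, and GATA2 lay above hi-77+/+ empty. In hi-77-/- empty against hi-77+/+ empty, 6 of the 74 sites opened (8.11%), beside 2.86% of gene-linked sites and 3.49% of those on chromosome 11. In 9aa-Ins against hi-77+/+ empty 9 opened (12.2%), beside 4.67% and 5.41%. The count of closed sites was 0 in both, where 1.12% and 1.51% of the gene-linked sites on chromosome 11 closed.

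**Figure D3:**
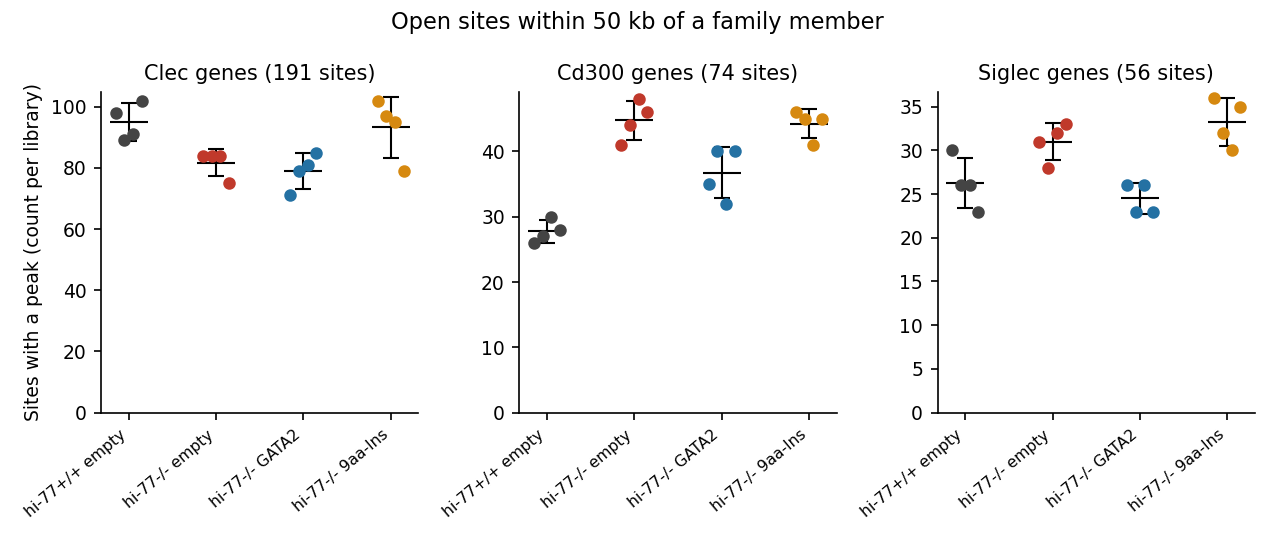
Number of sites with a peak in each library (points) within 50 kb of a Clec, Cd300 or Siglec gene, with the mean and SD of 4 libraries (black). Cd300 counts run from 26 to 30 in hi-77+/+ empty and from 41 to 48 in hi-77-/- empty.

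Cd300a, an inhibitory receptor for phosphatidylserine, had 7, 7, 7 and 8 open sites in hi-77+/+ empty and 12, 15, 14 and 15 in hi-77-/- empty. There were 8, 10, 8 and 12 in GATA2 and 13, 12, 13 and 13 in 9aa-Ins. The start of Cd300a was open in all 16 libraries, so the difference lay in its surroundings, among them -6.5 kb (0, 3, 0 and 4 libraries in the order of the groups above) and +13.0 kb (0, 2, 0 and 4). Cd300lf, the other inhibitory member, which binds ceramide, had 7, 7, 8 and 7 open sites in hi-77+/+ empty and 10, 9, 10 and 9 in hi-77-/- empty. It had 11, 12, 10 and 8 in GATA2 and 12, 11, 11 and 12 in 9aa-Ins. Its site at -8.1 kb, in an intron of Rab37, was open in 4 libraries of 9aa-Ins and 1 of GATA2, and that at -23.9 kb in 2, 4 and 3 libraries of hi-77-/- empty, GATA2 and 9aa-Ins.

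Among the activating members, Cd300lb, which pairs with DAP12, had 9, 8, 8 and 8 open sites in hi-77+/+ empty against 12, 14, 13 and 13 in hi-77-/- empty. Cd300c had 4 in each hi-77+/+ empty library, 8, 8, 10 and 7 in hi-77-/- empty, 5, 7, 6 and 7 in GATA2 and 8, 8, 8 and 9 in 9aa-Ins. The site 8.3 kb inside Cd300c ranked high, with scores of 74.3, 74.7, 73.4 and 73.8 in hi-77-/- empty and 53, 63.8, 73.2 and 77.1 in 9aa-Ins. It was absent from hi-77+/+ empty and held 1 peak in GATA2, with a score of 10.2. The site Cd300lb +18.9 kb had the same counts of 0, 4, 1 and 4 libraries.

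The start of Cd300c2, an activating member, was open in hi-77-/- empty with scores of 43.7, 50.4, 18 and 61.3 and in 9aa-Ins with 20, 45.6, 29.8 and 40.3. This site lay within 50 kb of 7 members, so Cd300ld, Cd300ld2, Cd300ld3, Cd300ld4, Cd300ld5 and Cd300c also counted it, and their numbers are not independent. The start of Cd300ld was open in 0, 2, 1 and 4 libraries, with scores of 1.13 to 55.1 in 9aa-Ins. Cd300e, a receptor of monocytes, had a site at -13.2 kb that was open in all 12 hi-77-/- libraries and in none of hi-77+/+ empty. Outside the cluster, Cd300lg, a receptor of endothelium, had a site at -32.1 kb, in an intron of Mpp3, with scores of 51.6 to 68.2 in hi-77-/- empty and 9aa-Ins. Its site at -14.1 kb was open in 0, 4, 2 and 2 libraries.

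**Figure D4:**
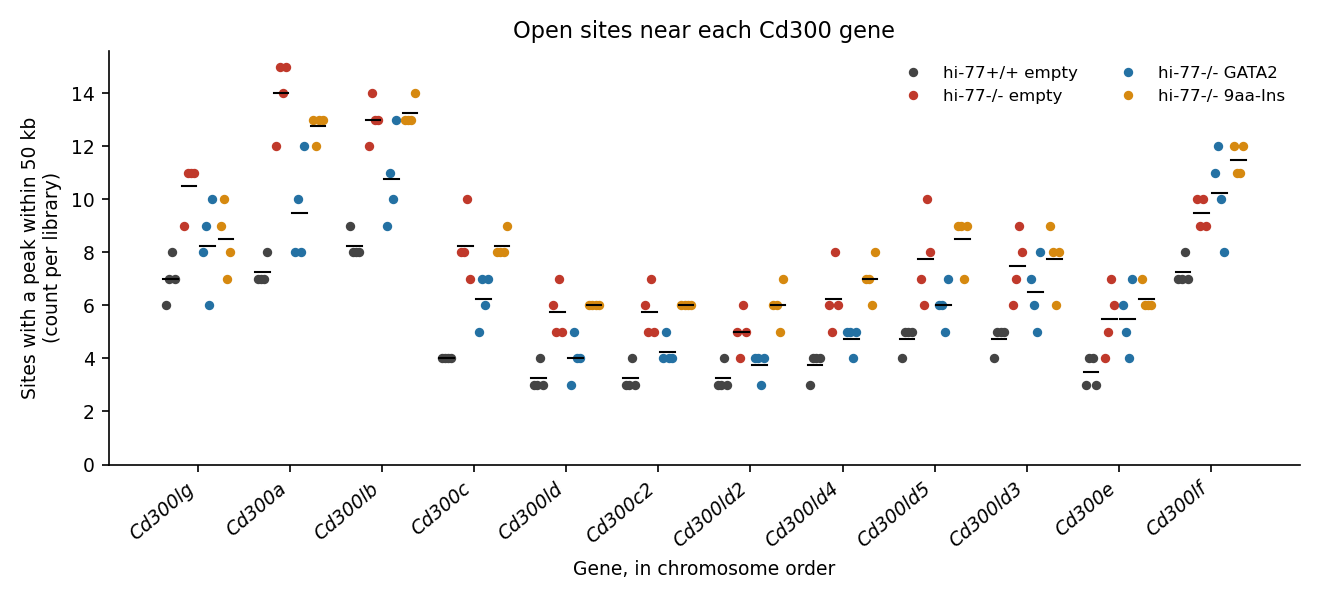
Number of sites with a peak within 50 kb of each Cd300 gene in each library (points) with the group mean (black line), genes in chromosome order. For Cd300a all hi-77-/- empty libraries (12 to 15) lie above all hi-77+/+ empty libraries (7 to 8). Neighbouring genes share sites.

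Clec5a, a DAP12-coupled receptor of monocytes and neutrophils, had 2, 2, 3 and 5 open sites in hi-77+/+ empty and 6, 7, 6 and 6 in hi-77-/- empty. It had 2, 2, 3 and 5 in GATA2 and 6, 7, 7 and 6 in 9aa-Ins, so the groups formed 2 levels without overlap. Its start was open in 1, 4, 0 and 4 libraries and the site at -2.6 kb in 0, 4, 1 and 4. At the latter, scores were 53.9, 42.9, 55.2 and 26.3 in hi-77-/- empty and 66, 68.4, 72.5 and 77.5 in 9aa-Ins. The single GATA2 library with a peak, replicate 4, scored 25.

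Clec4d and Clec4e, next to each other on chromosome 6, had more open sites with GATA2 than in hi-77-/- empty. For Clec4d there were 9, 7, 10 and 8 in hi-77+/+ empty, 7, 8, 8 and 7 in hi-77-/- empty, 12, 11, 13 and 10 in GATA2 and 12, 9, 10 and 9 in 9aa-Ins. For Clec4e, which shares most of these sites, the numbers were 8, 7, 10 and 8, then 6, 7, 8 and 6, then 12, 10, 11 and 10, then 11, 8, 9 and 8. For both genes the GATA2 libraries lay above those of hi-77-/- empty without overlap, but not all lay above those of hi-77+/+ empty. For Clec4d the 9aa-Ins libraries also lay above those of hi-77-/- empty without overlap. The site Clec4d -1.5 kb scored 63.2, 51.8, 45.2 and 39.7 with GATA2 and 35.6, 28.3, 40.1 and 41.4 with 9aa-Ins and was absent from both empty groups. Clec4e -16.4 kb scored 29.4, 25.5, 19 and 24.6 with GATA2 and was absent from the other 12 libraries. Its nearest start was that of Vmn2r19.

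Clec4n (Dectin-2), which binds fungal mannans, had 7, 6, 7 and 6 open sites in hi-77+/+ empty, 6, 5, 6 and 5 in hi-77-/- empty, 7, 9, 9 and 6 in GATA2 and 10, 8, 9 and 7 in 9aa-Ins. The 9aa-Ins libraries lay above those of hi-77-/- empty but overlapped those of GATA2 and hi-77+/+ empty. Among the related genes of the cluster, the site Clec4b2 +2.8 kb was open in 9aa-Ins alone, in 4 of 4 libraries. Its scores there were low, at 8.74, 17.8, 11.7 and 16. Clec4b2 +12.1 kb was open in 4, 0, 2 and 3 libraries. Clec4a1 had a site at -31.9 kb that was open in 0, 1, 1 and 4 libraries, and its start was open in 2, 4, 1 and 4.

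Clec12a, an inhibitory receptor for uric acid crystals, had 3, 7, 4 and 4 open sites in hi-77+/+ empty, 6, 6, 7 and 6 in hi-77-/- empty, 4 in each GATA2 library and 10, 7, 8 and 7 in 9aa-Ins. GATA2 lay below hi-77-/- empty and 9aa-Ins without overlap, while hi-77+/+ empty spanned both levels. Its site at -29.8 kb scored 45.2, 47.4, 42.3 and 52.8 in hi-77-/- empty and 59.6, 43.4, 43.7 and 52.9 in 9aa-Ins. The site at -4.7 kb, shared with the inhibitory Clec12b, and Clec1a -43.0 kb, in an intron of Olr1, were open in 9aa-Ins alone. Their scores there were 0.578 to 31.25 and 11.1 to 35.9. The Clec2 genes had few such sites: Clec2d -8.5 kb was open in 0, 0, 1 and 4 libraries. Clec2i +3.2 kb, shared with Clec2g, was open in 0, 4, 3 and 4. The latter site covered the start of another gene, BC035044. Clec2l -13.2 kb, Clec2i -37.3 kb, Clec2i -31.0 kb and Clec2e +42.6 kb were open in every hi-77+/+ empty library. The first pair was absent from 9aa-Ins and the second from GATA2. The sites upstream of Clec2i lay within BC035044.

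Clec16a, whose product acts in endosomes, held 4 called sites in its introns that differed in direction. Its site at +24.5 kb followed the pattern of the first set, with scores of 52, 34.5, 44.9 and 48.2 in hi-77-/- empty and 41.2, 30.8, 45.4 and 46.4 in 9aa-Ins. The site at +26.6 kb was open in hi-77+/+ empty alone, that at +8.6 kb in 4, 0, 3 and 0 libraries and that at +39.8 kb in 0, 1, 4 and 4. Clec11a, a secreted growth factor of bone, had a site at -28.8 kb, in an exon of Shank1, that was open in 0, 2, 3 and 4 libraries.

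The 3 members on chromosome 8 had more open sites in hi-77+/+ empty. The numbers for Clec18a were 12, 9, 9 and 13 in hi-77+/+ empty and 4 to 6 in the other 12 libraries, and for Clec3a 7, 6, 6 and 8 against 2 to 5. Clec4g, a liver and lymph node lectin, had 8, 8, 8 and 9 against 4 to 7. Chromosome 8 as a whole held 7.84% ± 0.147 of the peaks used in hi-77+/+ empty, against 5.45% ± 0.274 in hi-77-/- empty, 5.42% ± 0.392 in GATA2 and 5.41% ± 0.198 in 9aa-Ins (SD, n = 4). In hi-77-/- empty against hi-77+/+ empty, 6.28% of the gene-linked sites on that chromosome closed. The part of this chromosome-wide difference in the counts for Clec18a, Clec3a and Clec4g was not tested. Called sites there were Clec4g +14.6, +32.6 and +34.6 kb and Clec18a +47.8 kb. Clec4g +14.6 kb was open in hi-77+/+ empty alone, with scores of 1.03, 1.69, 64.6 and 44. Clec4g +34.6 kb was open in 3, 4, 0 and 4 libraries. Clec4g +32.6 kb and Clec18a +47.8 kb were both open in 4, 1, 0 and 0. The Clec4g sites at +32.6 and +34.6 kb lay within Fcer2a, and Clec18a +47.8 kb in an intron of Aars.

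**Figure D5:**
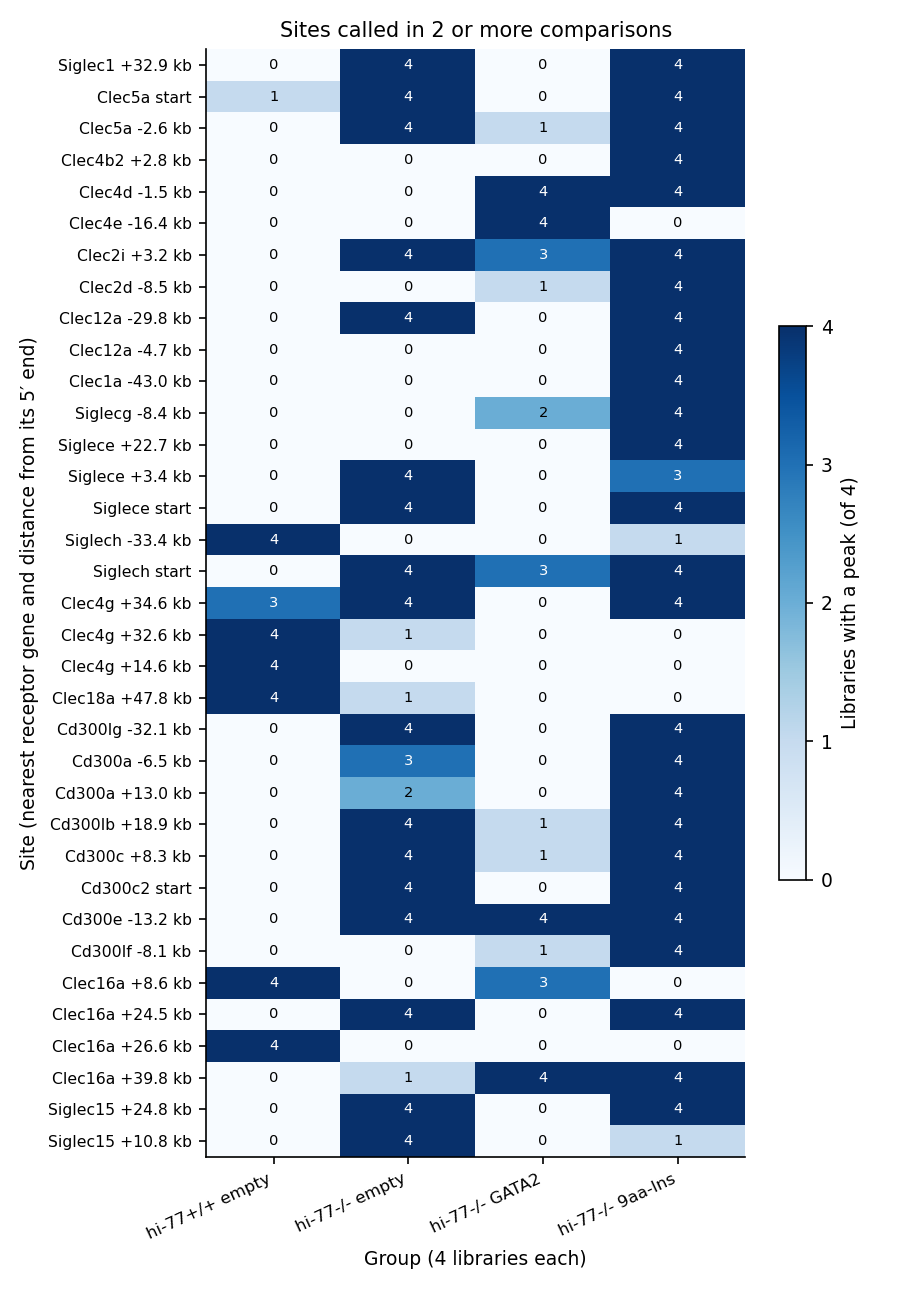
Number of libraries of each group (of 4) with a peak at 35 of the 36 sites called in 2 or more comparisons, named by the nearest receptor gene and the distance from its 5′ end, in chromosome order. Most sites have 0 in hi-77+/+ empty and 4 in hi-77-/- 9aa-Ins.

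Counting members whose 4 libraries all lay above or all below those of the other group, 12 had more and 3 fewer open sites in hi-77-/- empty against hi-77+/+ empty, beside 6.23% and 11.2% of the 19000 protein-coding genes with a site. GATA2 against hi-77-/- empty gave 2 and 4, beside 3.45% and 4.33%, and 9aa-Ins against hi-77-/- empty gave 5 and 0, beside 3.25% and 0.474%. 9aa-Ins against GATA2 gave 12 and 0, beside 6.56% and 2.46%. GATA2 against hi-77+/+ empty gave 1 and 3, beside 4.68% and 10.8%, and 9aa-Ins against hi-77+/+ empty gave 17 and 3, beside 9.09% and 10.1%. Each such gene had p = 0.0286 by the two-sided exact permutation test, the smallest that 4 against 4 libraries allow. The smallest Benjamini-Hochberg adjusted p over all genes was 0.149, so no gene passed correction, while 707 to 3638 genes had an unadjusted p under 0.05. The 11 genes of the Cd300 cluster share sites and weigh on these counts together. With all deposited peaks in place of the 49000 strongest, the 12 genes with more open sites in hi-77-/- empty against hi-77+/+ empty became 2, and the 5 with more in 9aa-Ins against hi-77-/- empty became 12. With the 24000 strongest peaks those 5 became 0. The shares of all genes under these settings were not counted, so whether the background moved too is not shown.

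Of the 321 member sites, 273 were called in no comparison. Peaks in all 16 libraries were found at 65 member sites (20.2%), beside 26.7% of gene-linked sites, and 67 member sites had a peak in a single library. Cd300lb had 7 sites open in all 16 libraries, Cd300a 6, Clec4d, Clec4e and Clec2i 5 each and Clec4g 4, and 15 other members had 3. The start was open in all 16 libraries for 9 members, Clec4a3, Clec4e, Clec2d, Siglecf, Clec11a, Cd300lg, Cd300a, Cd300lf and Clec16a, and in none for 24. Clec14a, an endothelial gene, had no site.

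All 14 signaling partners examined, among them Tyrobp, Fcer1g, Syk, Card9 and Ptpn6, had a peak at their start in all 16 libraries. Of their 236 sites, 9 opened (3.81%) and 7 closed (2.97%) in hi-77-/- empty against hi-77+/+ empty, beside 2.86% and 2.23% of gene-linked sites. With GATA2 against hi-77-/- empty 3 opened (1.27%) and 5 closed (2.12%), beside 1.5% and 1.91%. In the first comparison 2 of the 14 genes had more open sites without overlap, Syk and Malt1, and 1 had fewer, Plcg2. The shares of all genes with a site that did so were 6.23% and 11.2%. Syk had 6 open sites on average in hi-77+/+ empty and 11, 11.2 and 11.5 in hi-77-/- empty, GATA2 and 9aa-Ins. Malt1 had 2, 4, 2.75 and 4.25 in the same order, and Plcg2, a phospholipase, 23.2, 12.2, 10.5 and 11.2. Of 12 lectin and Siglec-type receptors outside the name rule, 2 had an open start in all 16 libraries, Cd33 and Cd69. Some of their 105 sites were also member sites, among them Clec4g +34.6 kb within Fcer2a and Clec1a -43.0 kb within Olr1. The calls of both sets are thus not independent. Of the 105 sites, 2 opened (1.9%) and 1 closed (0.952%) in hi-77-/- empty against hi-77+/+ empty. With GATA2 against hi-77-/- empty 1 opened (0.952%) and 6 closed (5.71%), and with 9aa-Ins against hi-77-/- empty 5 opened (4.76%) and 0 closed, beside the 1.24% and 0.152% given earlier. In the first comparison 2 of the 12 genes had more open sites without overlap, Mrc1 and Asgr2, and 2 had fewer, Cd209a and Fcer2a. Of all genes with a site, 6.23% and 11.2% did so. Mrc1, the macrophage mannose receptor, had 0.25, 2, 0.25 and 2.25 open sites on average in the order of the groups above, and Asgr2 had 1, 3, 2.5 and 4.5. Cd209a had 5.25, 3.5, 3.5 and 4, and Fcer2a 11.8, 9.25, 6.25 and 10.8. Plcg2, Cd209a and Fcer2a lie on chromosome 8, and the part of its chromosome-wide difference in their counts was not tested.

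Among the other markers, 2 of 4 macrophage markers had an open start in every group. Mean numbers per library in the order of the groups above were 1, 1.25, 2.75 and 1.75 of 4 for mast cells and basophils, 3, 2.25, 2.5 and 2 of 4 for erythroid cells and 1, 1, 0 and 1 of 3 for B cells.

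Markers of granulocytes and monocytes did not all move one way. Of 5 such markers, 1.25 had an open start per library in hi-77+/+ empty, 2.25 in hi-77-/- empty, 2 in GATA2 and 3.25 in 9aa-Ins. Around Csf1r, the receptor for the macrophage growth factor, the mean number of open sites was 4.75, 12.2, 8 and 15.2, although its start was open in 0 libraries. Itgam, an integrin of myeloid cells, had 3.25, 6.25, 4.5 and 8. These 2 genes were higher in hi-77-/- empty than in hi-77+/+ empty without overlap, beside 6.23% of all genes with a site. The granule genes Mpo (14.2, 13.5, 13.2 and 17.8) and Elane (17.5, 16.5, 16.8 and 19) and the monocyte gene Ly6c2 (4.25, 3.25, 3.25 and 7.5) had lower means in hi-77-/- empty, with groups that overlapped. They were higher in 9aa-Ins than in hi-77-/- empty without overlap, beside 3.25% of all genes with a site. In a bulk library, more cells of a type and more accessible DNA per cell cannot be told apart, and the part of cell composition in the receptor results was not tested.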

How the data were processed

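ATAC-seq peak lists of 16 libraries were analysed. Per the labels and the study's methods, the authors trimmed reads with Trim Galore 0.4.1, aligned them to mm10 with Bowtie2 2.2.5, used Picard 2.26.0 and called peaks with MACS2 in each library. The deposited files hold a score, a fold enrichment ratio, −log10 p and −log10 q values and the summit of each peak, as the authors' peak caller wrote them. They hold no read counts.

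The 49000 peaks with the highest −log10 p on chromosomes 1 to 19 and X were kept per library, and peaks sharing 1 bp were merged into sites. Presence was compared by exact permutation tests (Python 3.11.15, numpy 2.4.6, pandas 2.3.3) and rank scores by limma 3.58.1 in R 4.3.3 with trend and robust options. These options were chosen on simulated data after a plain fit had been seen on the real data. No limma setting met both the recovery and the false-call limits set for it there, so limma served only as an alternative count.

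Members and lists were chosen with earlier results of these data known. Named were members with a called site or with groups that did not overlap, the 10 with most sites open in all 16 libraries (ties included) and those without a site. The sequence and values of 1 named site are not reported here. Alternatives changed the peaks used, peak width, overlap, window, gene assignment, call rule and libraries. The replicates are described as biological by the study, and p-values measure the spread between these libraries.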

Additional observations from a re-analysis of the deposited data

Results flagged for a closer look

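In hi-77-/- empty, 75 sites near Clec genes had a peak in replicate 4 and 84 in each of the other 3 libraries, so that library stood apart by the whole range of its group. The set of Clec4f, Clec1a, Clec4g, Clec10a, Clec14a and Clec16a had 16 open sites in replicate 2 of hi-77-/- empty and 20 in each of the others, and the cluster from Clec12a to Clec1a had 11 in replicate 3 and 8 in each of the others. In 9aa-Ins, replicate 4 was low for all Clec2 genes with Clec2l, with 14 open sites against 21 to 22, and for the Clec2 cluster from Clec2h to Clec2d, with 12 against 17 to 18. These 5 of 112 groups of 4 libraries had a lowest or highest value so far from the rest. Several of the gene sets share sites, counts with a range under 3 sites were left out, and chance flags about 1 in 20 groups.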

How the results depend on the processing

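The comparisons are named here as deletion (hi-77-/- empty against hi-77+/+ empty), GATA2 and 9aa-Ins (each against hi-77-/- empty), and by both groups otherwise. Except for limma, the share of all gene-linked sites or genes was not counted under these settings. Whether the background moved with the counts is thus not shown. Counts below are those that moved by over 1.5 times, and each is followed by the count of the report in brackets; all other counts stayed within that range, and the cause was not tested. With all deposited peaks, opened sites numbered 5 (3) for GATA2, and closed sites numbered 11 (5) for deletion, 7 (11) for GATA2, 14 (7) for GATA2 against hi-77+/+ and 2 (7) for 9aa-Ins against hi-77+/+. There, genes with more open sites numbered 2 (12) for deletion and 12 (5) for 9aa-Ins, and genes with fewer numbered 5 (3) for deletion, 6 (3) for GATA2 against hi-77+/+ and 1 (3) for 9aa-Ins against hi-77+/+. With the 24000 strongest peaks, opened sites numbered 0 (3) for GATA2, 1 (8) for 9aa-Ins, 2 (5) for GATA2 against hi-77+/+ and 16 (28) for 9aa-Ins against hi-77+/+, and closed sites numbered 1 (0) for 9aa-Ins, 1 (2) for 9aa-Ins against GATA2, 2 (7) for GATA2 against hi-77+/+ and 4 (7) for 9aa-Ins against hi-77+/+. There, genes with more open sites numbered 1 (2) for GATA2, 0 (5) for 9aa-Ins, 2 (1) for GATA2 against hi-77+/+ and 10 (17) for 9aa-Ins against hi-77+/+, and genes with fewer numbered 7 (4) for GATA2 and 3 (0) for 9aa-Ins against GATA2. With peaks under 1 kb, closed sites numbered 3 (5) for deletion and 4 (2) for 9aa-Ins against GATA2, and genes with more open sites numbered 1 (2) for GATA2 and 2 (1) for GATA2 against hi-77+/+. There, genes with fewer numbered 8 (4) for GATA2, 1 (0) for 9aa-Ins, 1 (0) for 9aa-Ins against GATA2 and 1 (3) for GATA2 against hi-77+/+. With peaks that had to cover 50% of the site, opened sites numbered 0 (3) for GATA2, 29 (16) for 9aa-Ins against GATA2 and 1 (5) for GATA2 against hi-77+/+, and closed sites numbered 8 (5) for deletion, 0 (2) for 9aa-Ins against GATA2, 14 (7) for GATA2 against hi-77+/+ and 3 (7) for 9aa-Ins against hi-77+/+. There, genes with more open sites numbered 7 (12) for deletion and 0 (1) for GATA2 against hi-77+/+, and genes with fewer numbered 7 (4) for GATA2 and 5 (3) for GATA2 against hi-77+/+. With a 25 kb window, closed sites numbered 3 (5) for deletion, 7 (11) for GATA2, 1 (7) for GATA2 against hi-77+/+ and 3 (7) for 9aa-Ins against hi-77+/+, and genes with more open sites numbered 2 (1) for GATA2 against hi-77+/+. There, genes with fewer numbered 1 (0) for 9aa-Ins against GATA2 and 1 (3) for GATA2 against hi-77+/+. With sites given to the nearest gene only, opened sites numbered 10 (16) for 9aa-Ins against GATA2 and 3 (5) for GATA2 against hi-77+/+, and closed sites numbered 7 (11) for GATA2, 1 (2) for 9aa-Ins against GATA2, 2 (7) for GATA2 against hi-77+/+ and 2 (7) for 9aa-Ins against hi-77+/+. There, genes with more open sites numbered 7 (12) for deletion, 1 (2) for GATA2, 3 (5) for 9aa-Ins, 5 (12) for 9aa-Ins against GATA2 and 11 (17) for 9aa-Ins against hi-77+/+, and genes with fewer numbered 0 (3) for GATA2 against hi-77+/+ and 1 (3) for 9aa-Ins against hi-77+/+.

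Differences of mean open sites turned sign for single genes: with the 24000 strongest peaks to -0.5 for Clec12b and Cd300lf with 9aa-Ins and to -0.25 for Siglecg in 9aa-Ins against GATA2 and against hi-77+/+. With a 25 kb window Cd300ld5 turned to -0.25 for deletion. With the nearest gene only, Clec4g turned to 0.25 for deletion and for 9aa-Ins against hi-77+/+, Cd300ld5 to -0.5 in both, and Cd300ld2 to -0.25 in the latter.

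By limma on the rank score, opened sites numbered 49 (16) for deletion, 5 (8) for 9aa-Ins, 37 (16) for 9aa-Ins against GATA2, 20 (5) for GATA2 against hi-77+/+ and 62 (28) for 9aa-Ins against hi-77+/+, and closed sites numbered 30 (5) for deletion, 26 (11) for GATA2, 4 (0) for 9aa-Ins, 8 (2) for 9aa-Ins against GATA2, 28 (7) for GATA2 against hi-77+/+ and 40 (7) for 9aa-Ins against hi-77+/+. With the replicate number as a block in limma, opened sites numbered 49 (16) for deletion, 3 (8) for 9aa-Ins, 38 (16) for 9aa-Ins against GATA2, 21 (5) for GATA2 against hi-77+/+ and 57 (28) for 9aa-Ins against hi-77+/+, and closed sites numbered 32 (5) for deletion, 28 (11) for GATA2, 1 (0) for 9aa-Ins, 7 (2) for 9aa-Ins against GATA2, 28 (7) for GATA2 against hi-77+/+ and 40 (7) for 9aa-Ins against hi-77+/+. In simulated data limma called more unchanged sites than its threshold allows. The replicate numbers did not pair the libraries: deviations of same-numbered libraries correlated between -0.0432 and 0.0759, 0 of 24 pairs exceeded 0.1, and 4 of 16 libraries correlated best with their own number. With the replicate block, the exact sign-flip test of open sites per gene cannot go below p = 0.125.

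With each library left out in turn, opened sites ranged over 17 to 20 for deletion, 3 to 7 for GATA2, 8 to 11 for 9aa-Ins, 17 to 24 for 9aa-Ins against GATA2, 5 to 9 for GATA2 against hi-77+/+ and 29 to 33 for 9aa-Ins against hi-77+/+. Closed sites ranged over 6 to 9 for deletion, 11 to 17 for GATA2, 0 to 2 for 9aa-Ins, 2 to 5 for 9aa-Ins against GATA2, 7 to 11 for GATA2 against hi-77+/+ and 7 to 10 for 9aa-Ins against hi-77+/+. Genes with more open sites ranged over 12 to 14 for deletion, 2 to 6 for GATA2, 5 to 10 for 9aa-Ins, 12 to 17 for 9aa-Ins against GATA2, 1 to 5 for GATA2 against hi-77+/+ and 17 to 20 for 9aa-Ins against hi-77+/+. Genes with fewer ranged over 3 to 4 for deletion, 4 to 8 for GATA2, 0 to 2 for 9aa-Ins, 0 to 1 for 9aa-Ins against GATA2, 3 to 4 for GATA2 against hi-77+/+ and 3 to 4 for 9aa-Ins against hi-77+/+. Counts that moved by over 1.5 times rested on these libraries. Without hi-77+/+ empty replicate 2 the closed sites for deletion were 9, and without replicate 3 they were 8, and 11 closed for GATA2 against hi-77+/+, with 5 genes higher. Without hi-77-/- GATA2 replicate 1 the opened sites were 5 for GATA2 and 9 against hi-77+/+, where 11 closed, and 4 closed for 9aa-Ins against GATA2. Without GATA2 replicate 3, 5 opened. Without GATA2 replicate 4, 7 opened and 17 closed, 8 genes were lower, and 5 sites closed for 9aa-Ins against GATA2. Genes higher in GATA2 against hi-77+/+ numbered 3 without GATA2 replicate 1 or 4 or hi-77+/+ replicate 4, 5 without GATA2 replicate 3, and 2 without hi-77+/+ replicate 1. Without hi-77-/- empty replicate 3, 6 genes were higher with GATA2 and 10 with 9aa-Ins, and without replicate 4, 8 were lower with GATA2. Without 9aa-Ins replicate 4, 8 genes were higher. Closed sites for 9aa-Ins were 1 or 2 without hi-77-/- empty replicate 1, 3 or 4 or 9aa-Ins replicate 2 or 4. Genes lower with 9aa-Ins were 2 without hi-77-/- empty replicate 1 and 1 without 9aa-Ins replicate 2, and 1 against GATA2 without 9aa-Ins replicate 1. A call of 3 of 3 against 0 of 4 is easier to meet than 4 of 4, so a count of sites can only stay or rise here.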
